A study of Danio rerio with 4 samples.

Results

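Genes for liver and plasma proteins were followed across 4 arrays of zebrafish testis RNA. The list held 40 genes named for their role in liver or blood plasma, and a probe could be named for 32 of them among the 24330 genes tested. Of the 24330, the base of most shares of all genes below, 12496 carried a gene name. The others were counted under the identifier given on the array. All 32 passed the filter on dim probes, agt through the MCLR arrays and gc through the control arrays, and the probe used was well above background on all 4 arrays for 30. No probe was named for apoc1, tfa, hpx, c9, fetub, itih2, hp and a2ml, which are not described. The testes came from 4-month-old zebrafish held for 6 weeks at 20 µg/L of microcystin-LR (MCLR), the cyanobacterial peptide toxin that inhibits phosphatases PP1 and PP2A, or at 0 µg/L of it. Each group had 2 arrays, and no genotype, strain or other agent was given for either group.

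Hepatocytes make and secrete most proteins of blood plasma: the apolipoproteins that carry lipid, the clotting factors and their inhibitors, carriers of metals, vitamins and hormones, and complement. They also hold enzymes that break down amino acids. Some of these genes respond to inflammation through interleukin-6, a response known as the acute phase. In fish as in mammals the liver is the best known target organ of microcystins. Several of these genes are also active outside the liver, so a signal in testis RNA does not by itself name the cell that made it.

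Levels below are log2 signals relative to the 75th percentile of each array, so that 0 marks the 75th percentile and a difference of 1 is 2-fold. Pairs of values give replicate 1 first and then replicate 2 of a group. A level belongs to its probe and is compared between arrays, not between genes. Each array had 43803 zebrafish spots, none of them saturated (0), and the share well above background ran from 81.9% to 88.2%. The germ cell genes that mark testis were well above background on every array (12 of 12 tested), as were those of Sertoli cells (7 of 7) and Leydig cells (4 of 4). The hepatocyte marker fabp10a was also well above background on all 4. All arrays lay on 1 slide, with MCLR at positions that differ from those of the controls, so that slide position cannot be told apart from group. In bulk tissue, fewer cells of a type and less RNA per cell cannot be told apart either. The labels do not say whether replicates were separate pools of fish, so p-values measure only the spread between these samples. Precision is limited by having 2 arrays a group.

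MCLR was set against control to find testis genes that differ after exposure. Among the liver and plasma protein genes, none passed the test of a difference between the groups. With limma and Benjamini-Hochberg adjustment over all genes, 0 of 32 were called higher and 0 lower, beside 0% and 0% of all genes tested. At an unadjusted p under 0.05, 0 of 32 were higher and 0 lower, where 8.67% and 0.53% of all genes were. None (0) was also at least 2-fold different in either direction, where 5.38% of all genes were higher and 0.242% lower. These shares of all genes include probes that were dim in 1 group. With only probes well above background on all 4 arrays, 0 of 30 were 2-fold different at that p. Of all 22376 such genes, 1.82% were. The smallest adjusted p was 0.596, for hamp. The median log2 fold change over the 32 was 0.04, beside 0.08 over all genes, with 18 positive and 14 negative values from -0.69 to 1.50. Of all 24330 genes, 14928 had a positive value.

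The limit of this comparison was the spread within the groups. The median standard error of a log2 fold change was 0.39 for the 32 genes and 0.28 for all genes tested, and 15.0% of all genes had a standard error at or above 0.39. At that standard error a log2 fold change of 0.98 would have been needed for an unadjusted p of 0.05. The 95% interval of 22 of the 32 genes reached a 2-fold difference, as did that of 10722 of all 24330 genes. A difference of that size is not excluded for those 22. The intervals are unadjusted, so they do not settle the question for the others. Single arrays moved the summary: the median log2 fold change was -0.33 without control replicate 1, 0.41 without control replicate 2, 0.16 without MCLR replicate 1 and -0.02 without MCLR replicate 2.

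**Figure D1:**
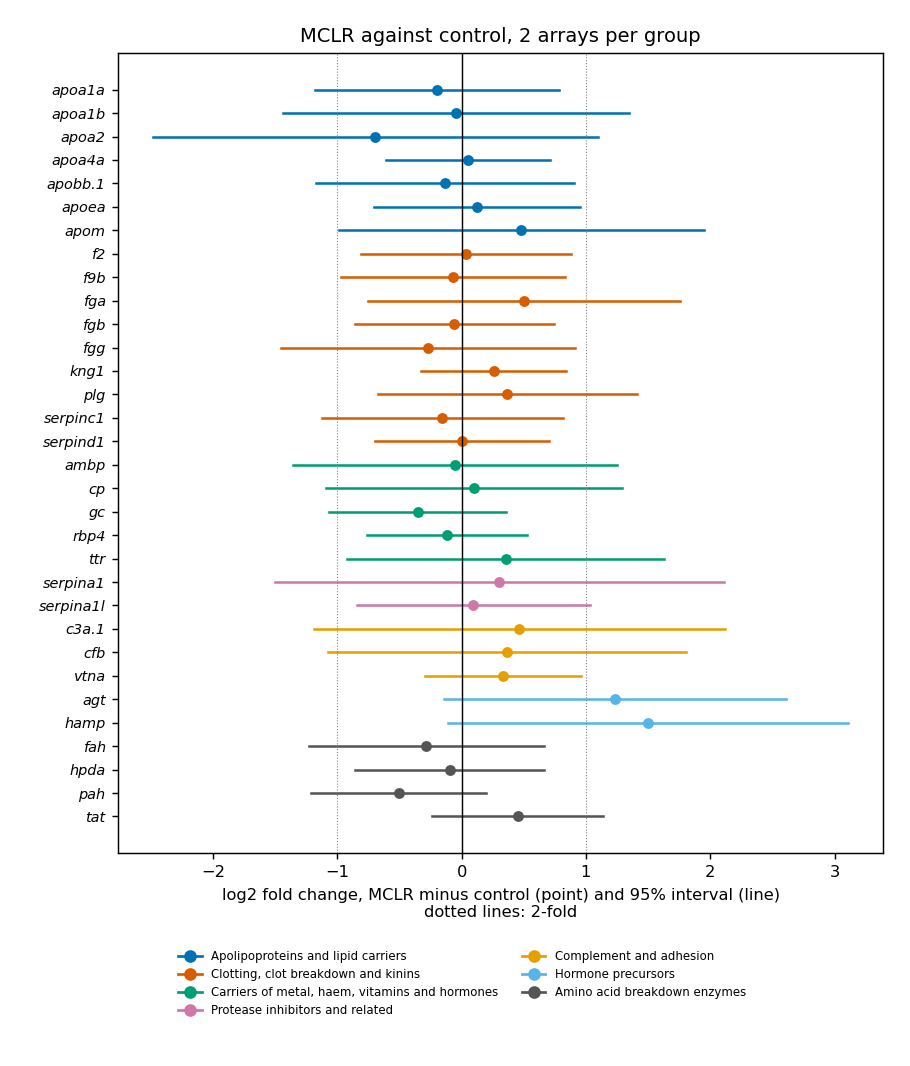
Log2 fold change of MCLR against control for the 32 measured genes, grouped and coloured by role; points are estimates, lines 95% intervals of limma with 2 arrays per group, and dotted lines mark 2-fold. Every interval spans 0, and the estimates run from -0.69 to 1.50.

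The groups were fully separate in 6 of the 32 genes. In 5 (15.6%) the MCLR arrays were higher, where 25.3% of all genes showed the same, and in 1 (3.12%) they were lower, where 9.08% did. By the probes used, the 5 were hamp, agt, tat, vtna and kng1, and the 1 was pah. With only probes well above background on all 4 arrays, 4 of 30 (13.3%, against 21.7% of all genes) were higher. By the same filter 1 of 30 (3.33%, against 9.44%) was lower. These shares rest on few genes, and their distance from those of all genes was not tested. With 3 arrays separation is more frequent by construction. With 1 control array left, it shows only where that array stands beside the MCLR arrays. The counts with a control array left out therefore largely repeat the counts by highest and lowest array given below. Then 17 (53.1%) were lower when control replicate 1 was left out, against 28.4% of all genes, and 26 (81.2%) were higher when control replicate 2 was, against 49.2%.

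The pair of hormone precursor genes had the estimates farthest from 0. Hepcidin, encoded by hamp, is the peptide hormone that limits iron release into plasma and is an acute phase gene. Its level was -3.74 and -3.60 on control replicates 1 and 2, and -3.17 and -1.18 on MCLR replicates 1 and 2. MCLR replicate 2 stood apart from the other arrays, and the groups did not overlap. This gave a log2 fold change of 1.50 ± 0.64 (SE, 2 arrays a group, adjusted p = 0.596), while the MCLR arrays differed from each other by 1.99. Without MCLR replicate 2 it was 0.51, and with normexp background correction 0.65. Angiotensinogen, the precursor of the hormone angiotensin, is encoded by agt, whose level was -6.41 and -4.75 for control against -4.30 and -4.40 for MCLR. Control replicate 1 was lowest, and there the probe was not well above background. The log2 fold change was 1.23 ± 0.55 (adjusted p = 0.629). Without control replicate 1 it was 0.40, and with normexp background correction it was 0.07. Without control replicate 2 the sole control array was the one below the background mark, so the difference there is only a bound of at least 2.82-fold. The fit of those 3 arrays gave agt an adjusted p of 0.0493, the single value under 0.05 among the 32 under any alternative, but that p rests on the level below the mark, and 322 of 24330 genes (1.32%) were called in that fit.

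Among the apolipoproteins, 7 of 8 genes were measured and 0 passed the test. The gene apoa1b encodes a form of apolipoprotein A-I, the main protein of high-density lipoprotein. Its level was 1.91 and 3.26 for control against 2.03 and 3.04 for MCLR. Replicate 2 was the higher array in each group, by 2.54-fold in the controls and 2.01-fold in MCLR, and the groups overlapped. The log2 fold change was -0.05 ± 0.56. For apoa2, another protein of high-density lipoprotein, the level was -3.13 and -0.95 for control against -3.01 and -2.45 for MCLR. Control replicate 2 stood far above the other 3 arrays, 4.54-fold above control replicate 1, and the groups overlapped. The log2 fold change was -0.69 ± 0.72, and it ran from -1.78 when control replicate 1 was left out to 0.40 when control replicate 2 was.

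The sphingolipid carrier gene apom had levels of -1.44 and -0.01 for control against -0.78 and 0.30 for MCLR. It was again higher on replicate 2 of each group, and its log2 fold change was 0.48 ± 0.59. The gene apobb.1, for an apolipoprotein B of very low-density lipoprotein, differed from this order, with -1.56 and -0.54 for control against -0.92 and -1.45 for MCLR. It was highest on control replicate 2 but lower on MCLR replicate 2 than on MCLR replicate 1. The same order of the MCLR arrays held for apoa1a, apoa4a and apoea.

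All 9 clotting, clot breakdown and kinin genes were measured, and 0 passed the test. Fibrinogen, the protein of the blood clot, is built from chains encoded by fga, fgb and fgg. The level of fga was 0.05 and 1.24 for control against 0.70 and 1.59 for MCLR, and that of fgb was -0.17 and 0.51 for control against -0.03 and 0.25 for MCLR. For fgg it was -3.02 and -1.65, then -2.66 and -2.55. All chains were higher on replicate 2 within each group, and the groups overlapped for each. Their log2 fold changes were 0.50 ± 0.50, -0.06 ± 0.32 and -0.27 ± 0.47.

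Prothrombin, the precursor of the clotting protease thrombin, is encoded by f2, at -1.003 and -0.24 for control against -0.73 and -0.44 for MCLR. Antithrombin, its inhibitor, is encoded by serpinc1, at -3.62 and -2.64 for control against -3.46 and -3.11 for MCLR. These 2 genes shared the order of the fibrinogen genes, with replicate 2 above replicate 1 in each group and no separation of the groups.

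Other genes of the class did not share that order. The kininogen gene kng1, whose protein gives rise to bradykinin, had -1.89 and -1.98 for control against -1.63 and -1.73 for MCLR. Its arrays differed by 0.35 at most, and its log2 fold change was 0.26 ± 0.23 (adjusted p = 0.963). The clotting factor IX gene f9b was lower on control replicate 2 than on control replicate 1, with a difference of -0.53. The plasminogen gene plg, for the precursor of the protease that dissolves clots, was at -3.38 on control replicate 1 and between -2.68 and -2.26 on the other arrays. For serpind1, which encodes heparin cofactor II, the probe used gave 5.67 and 6.18 for control against 5.99 and 5.86 for MCLR, a log2 fold change of 0.0043 ± 0.28. Of its 4 probes, 2 were well above background on no array. Another, well above it on all arrays, ran from -4.54 on control replicate 1 to -3.31 on MCLR replicate 1, with a log2 fold change of 0.78. The annotation places the gene in overlap with pi4kab. The bright probe is therefore uncertain as a measure of serpind1. Overlaps with other genes are also annotated for further members, kng1 and agt among them.

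Of the carriers, 5 of 8 genes were measured and 0 passed the test. The gene ambp encodes the precursor of alpha-1-microglobulin and bikunin, and its level was -0.83 and 0.69 for control against -0.28 and 0.04 for MCLR. Control replicate 2 was 2.87-fold above control replicate 1, against 1.25-fold between the MCLR arrays. Transthyretin, the carrier of thyroid hormone, is encoded by ttr, with -3.97 and -2.51 for control against -2.69 and -3.08 for MCLR. Control replicate 1 was lowest by more than the whole range of the other 3 arrays. The ceruloplasmin gene cp, for the copper protein of plasma, had 0.96 and 0.90 for control against 0.34 and 1.72 for MCLR. Here the control arrays lay close together and the MCLR arrays differed by 2.61-fold. The retinol carrier gene rbp4 varied least of the 5 carriers, with 2.23 and 2.61 for control against 2.27 and 2.34 for MCLR. The log2 fold changes of these 4 genes lay between -0.12 and 0.35.

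Alpha-1-antitrypsin, the chief protease inhibitor of plasma, is encoded by serpina1, with levels of -1.08 and 0.61 for control against -0.69 and 0.83 for MCLR. Replicate 2 was 3.22-fold above replicate 1 in the controls and 2.88-fold in MCLR. The groups overlapped, and the log2 fold change was 0.30 ± 0.72, the largest standard error among the 32 genes. Its neighbour in the annotation, serpina1l, had 0.48 and 1.45 for control against 1.15 and 0.98 for MCLR. In that gene control replicate 1 was the low array and the other 3 lay closer together.

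Complement C3, the central protein of the complement cascade, is encoded by c3a.1, with 0.43 and 1.44 for control against 0.50 and 2.30 for MCLR. Both replicate 2 arrays were above both replicate 1 arrays, by 2.02-fold in the controls and 3.47-fold in MCLR. Factor B, which forms the C3 convertase of the alternative pathway, is encoded by cfb, with -1.53 and 0.14 for control against -0.60 and -0.05 for MCLR. It followed the same order. Vitronectin, an adhesion protein of plasma, is encoded by vtna, with -0.99 and -0.75 for control against -0.66 and -0.42 for MCLR. Its groups did not overlap, but the log2 fold change of 0.33 ± 0.25 did not pass the test (adjusted p = 0.910). The values of c3a.1 and cfb were 0.46 ± 0.66 and 0.36 ± 0.58.

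The 4 enzymes of phenylalanine and tyrosine breakdown had ranges over the arrays from 0.62 to 0.94, and 0 of 4 passed the test. Phenylalanine hydroxylase, the first step, is encoded by pah, with -3.35 and -2.82 for control against -3.52 and -3.66 for MCLR. Its log2 fold change was -0.51 ± 0.28 (adjusted p = 0.776). Tyrosine aminotransferase, encoded by tat, had -0.27 and -0.10 for control against 0.03 and 0.51 for MCLR. The difference was 0.45 ± 0.28 (adjusted p = 0.822). These 2 genes separated the groups in opposite directions by the probes used, neither beyond the threshold. A second probe of tat, also well above background on all arrays, had -3.04 and -1.86 for control against -1.33 and -1.94 for MCLR. On that probe the groups overlapped. For hpda, the next enzyme, the level was 4.46 and 5.08 for control against 4.79 and 4.56 for MCLR. For fah, the last enzyme, it was -0.40 and -0.78 for control against -1.34 and -0.42 for MCLR. By the probes used, none of the 4 enzyme genes had both replicate 2 arrays above both replicate 1 arrays.

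**Figure D2:**
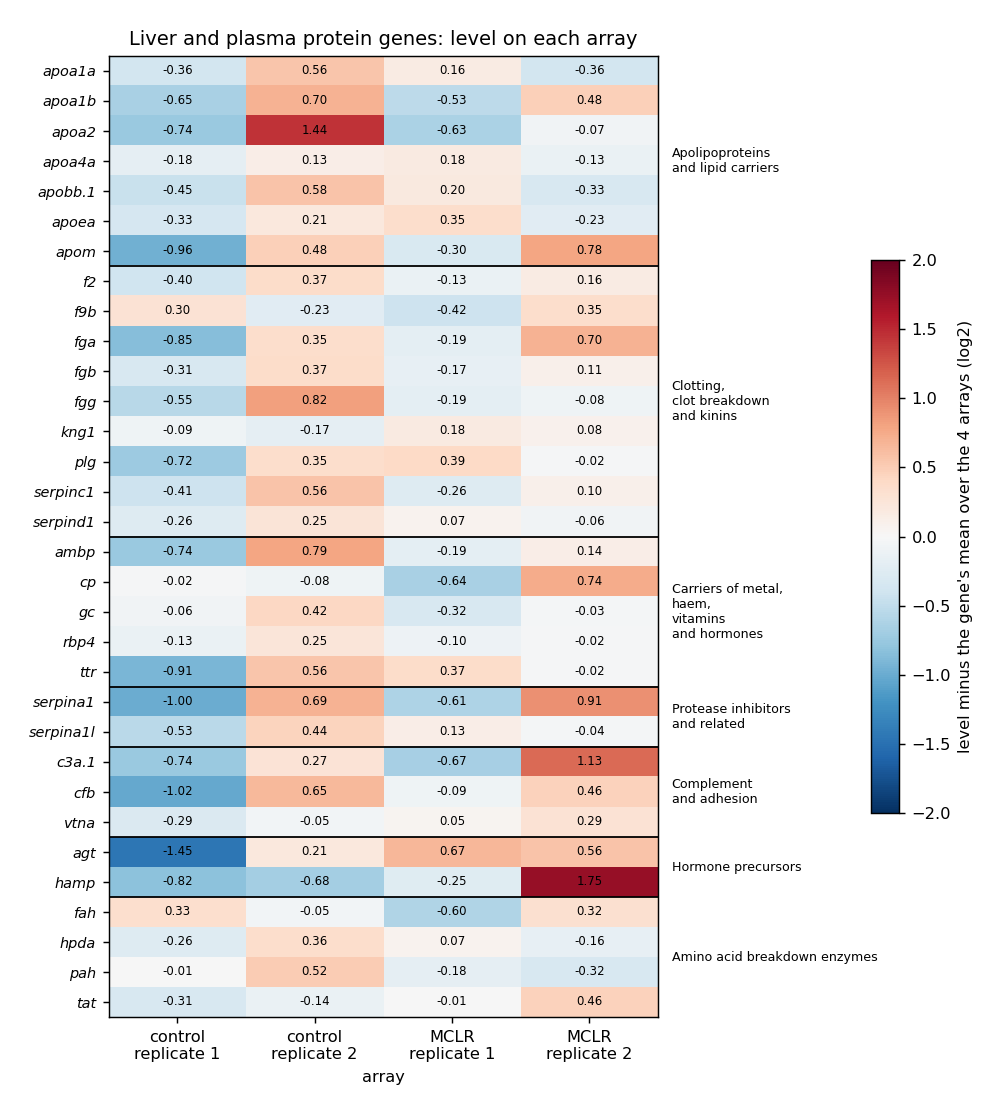
Level of each of the 32 genes on each array, as the difference from the mean of that gene over the 4 arrays (log2, printed in each cell; red above, blue below), with genes in rows by role. Control replicate 1 is blue for most genes, control replicate 2 red for most, and hamp and c3a.1 are reddest on MCLR replicate 2.

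Across the 32 genes, the median difference of replicate 2 from replicate 1 was 0.84 for the controls and 0.28 for MCLR. It was 0.47 for the controls with normexp background correction, whose offset shrinks differences between dim signals. For MCLR it was 0.13 with the mean of all probes of a gene and 0.49 with scaling to the median. Taken without sign, the median difference was 0.84 between the control arrays, 0.40 between the MCLR arrays and 0.26 between the group means. The highest level was on control replicate 2 in 17 genes (53.1%, against 23.7% of all genes), on MCLR replicate 2 in 9 (28.1%, against 25.7%), on MCLR replicate 1 in 5 (15.6%, against 32.8%) and on control replicate 1 in 1 (3.12%, against 17.9%). The lowest level was on control replicate 1 in 25 genes (78.1%, against 38.7%), on control replicate 2 in 1 (3.12%, against 23.8%), on MCLR replicate 1 in 4 (12.5%, against 17.1%) and on MCLR replicate 2 in 2 (6.25%, against 20.4%). The median level over the 32 was -1.48 and -0.65 for control against -0.85 and -0.43 for MCLR. Over all genes tested it lay between -1.55 and -1.45.

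Within each group most of the 32 genes were higher on the array numbered 2, more of them and by more in the controls than in MCLR. Control replicate 2 was above control replicate 1 in 28 of 32 genes (87.5%, against 58.5% of all genes), where the median difference over all genes was 0.09. MCLR replicate 2 was above MCLR replicate 1 in 20 of 32 (62.5%, against 44.8%), where it was -0.05. Both replicate 2 arrays lay above both replicate 1 arrays in 14 of 32 (43.8%, against 20.7%). In none of the 32 were both replicate 1 arrays above both replicate 2 arrays, an order found in 16.3% of all genes. The 14 were apoa1b, apoa2, apom, fga, fgb, fgg, f2, serpinc1, ambp, rbp4, gc, serpina1, c3a.1 and cfb, of which gc was not well above background on MCLR replicate 1. They came from the apolipoproteins (3 of 7), clotting genes (5 of 9), carriers (3 of 5), protease inhibitors (1 of 2) and complement (2 of 3). Single arrays have no replicate, so these differences carry no test. The design names 2 independent experiments with both groups in each, and the labels do not say which array came from which.

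The size of the array differences was uneven among the genes. The range over the 4 arrays ran from 0.35 for kng1 to 2.56 for hamp, with a median of 0.97. The 5 widest ranges were those of hamp, apoa2, agt, serpina1 and c3a.1. Of these, apoa2 was highest on control replicate 2, agt on MCLR replicate 1, and the other 3 on MCLR replicate 2. In 7 genes control replicate 2 was highest while MCLR replicate 2 was below MCLR replicate 1, namely apoa1a, apobb.1, ttr, serpina1l, serpind1, pah and hpda.

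The order of the arrays was also read from every probe of the 32 genes, on the same 4 arrays. Of 69 probes, 54 were well above background on all arrays. The 54 include 30 of the probes used, so the counts partly repeat those above and are not a separate check. Both replicate 2 arrays were above both replicate 1 arrays in 23 of the 54 (42.6%), where 18.4% of all such probes were. Control replicate 2 was highest in 27 (50%, against 21.1%). For serpina1, fga, fgg, serpinc1 and rbp4 each such probe showed the order. For ambp, fgb and f2 it was 2 of 3 probes, for c3a.1 it was 2 of 4, and for apoa1b, cfb and hpda 1 of 2; for hpda it was not the probe used. The second probe of apoa1b had a mean difference between the replicate 2 and replicate 1 arrays of 0.39, against 1.18 for the probe used. For cp the 3 probes gave values from -0.54 to 0.66. Of 18 genes with at least 2 such probes, 6 had probes whose log2 fold changes between the groups were of opposite sign, namely ambp, apoa1a, apoa4a, cp, fga and hpda.

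**Figure D3:**
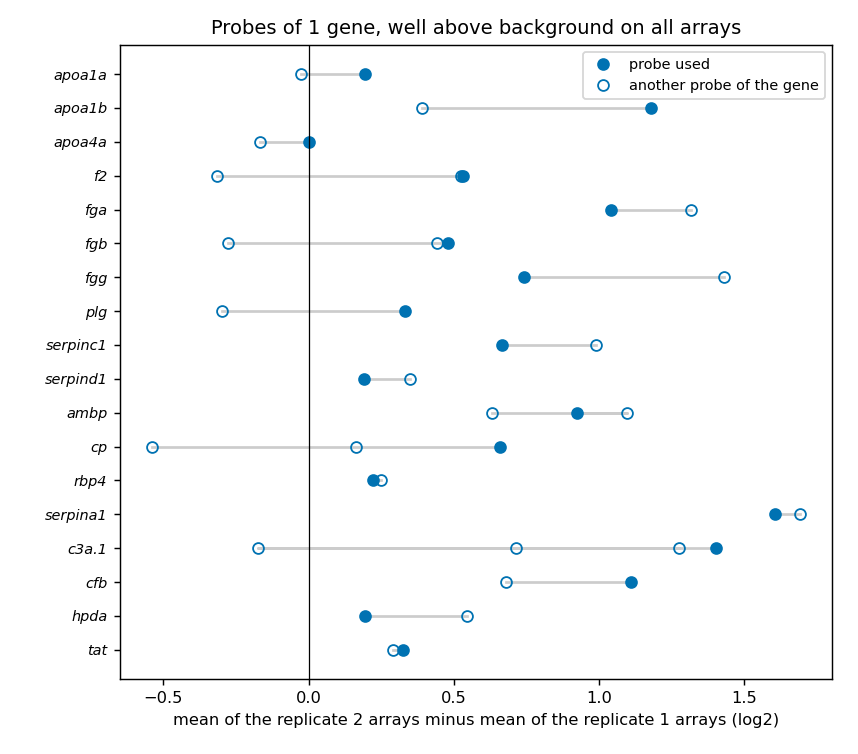
Mean level on the replicate 2 arrays minus mean level on the replicate 1 arrays (log2) for every probe well above background on all 4 arrays, in the 18 genes with at least 2 such probes; filled points are the probes used. Both probes of serpina1 lie at 1.61 and 1.69, while those of cp spread from -0.54 to 0.66.

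Lists of further liver genes were set beside the 32. Of 53 other plasma protein genes, 30 were tested, and limma called 0 higher and 0 lower after adjustment. Their median log2 fold change was 0.29. At an unadjusted p under 0.05, 3 genes had a higher and 0 a lower level, beside 8.67% and 0.53% of all genes. Of the 3, named after their values were seen, ahsg2 (0.84) and serping1 (0.64) were measured in both groups. The other, apoa4b.2, passed the filter only through the MCLR arrays; it was not well above background on either control array, its p rests on levels below that mark, and its difference is a bound of at least 2.60-fold. Replicate 2 was above replicate 1 in 26 of 30 genes between the control arrays and in 21 of 30 between the MCLR arrays, and both were above both in 18, with 2 genes in the opposite order. Over all genes these shares were 58.5%, 44.8%, 20.7% and 16.3%. The median differences of the list were 0.60 and 0.21. The apolipoprotein E gene apoeb was highest on control replicate 1, at 5.05, and at 4.15, 3.18 and 4.27 on control replicate 2 and MCLR replicates 1 and 2. The liver-enriched secreted protein genes leg1.1 and leg1.2, named here after their values were seen, had control differences of 1.69 and 1.65 and MCLR differences of 1.12 and 0.96. The 2 genes in the opposite order, named in the same way, were igf1 and c3b.1. Their control differences were -0.65 and -0.35 and their MCLR differences -0.54 and -1.94.

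Of 40 hepatocyte enzyme and transporter genes, 31 were tested, with 0 called by limma after adjustment. At an unadjusted p under 0.05, 2 were higher and 0 lower, beside 8.67% and 0.53% of all genes. The 2, named in the same way, were cyp2y3, at 0.77, and uroc1. The latter passed the filter only through the MCLR arrays, its p rests on control levels below the background mark, and its difference is a bound of at least 1.87-fold. The fatty acid binding protein gene fabp10a, the standard marker of zebrafish hepatocytes, had 3.29 and 4.57 for control against 3.40 and 4.70 for MCLR. Its replicate 2 arrays were higher by 1.28 in the controls and 1.30 in MCLR, and its log2 fold change was 0.12 ± 0.59. The cystathionine lyase gene cth had 2.36 and 3.02 for control, then 1.60 and 2.68 for MCLR. Over the list, both replicate 2 arrays were above both replicate 1 arrays in 14 of 31 genes and the opposite order held in 3. Of all genes, 20.7% and 16.3% showed these orders. Among the 3 was cyp7a1, named after its values were seen, with -1.26 between the control arrays and -1.58 between the MCLR arrays. Liver transcription factor genes had median differences between arrays of 0.17 in each group with both replicate 2 arrays above in 4 of 11 and below in 2. Of these 11, 0 were called after adjustment. At an unadjusted p under 0.05, 2 were higher and 0 lower, beside 8.67% and 0.53% of all genes. The 2 were hnf4a (0.79, below the background mark on 1 array) and nr1i2 (0.76), both named after their values were seen.

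Most pancreas markers were highest on control replicate 2, and their part in the liver gene values was not tested. Of 21 pancreas genes, 20 had their highest level on control replicate 2. Their summed linear level was 379.2 there and between 15.7 and 20.2 on the other arrays, and at least 20 of 21 were well above background on each array. Examples were prss59.1 (1.07 and 6.45 for control against 1.64 and 2.097 for MCLR) and ela2l (1.91 and 5.38, then 1.67 and 1.55). The median difference between the MCLR arrays was 0.45 for the pancreas genes. Between the groups their median log2 fold change was -2.03, with 0 called by limma after adjustment. At an unadjusted p under 0.05, 1 was lower (ela2, -1.85, named after its value was seen) and 0 higher, beside 0.53% and 8.67% of all genes. Without overlap, 3 were lower and 0 higher, beside 9.08% and 25.3% of all genes. Without control replicate 2, the liver and plasma protein genes were highest on MCLR replicate 2 in 19 of 32 (59.4%, against 35.8% of all genes), on MCLR replicate 1 in 11 (34.4%, against 41.9%) and on control replicate 1 in 2 (6.25%, against 22.2%).

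Among the testis lists, all 4 Leydig cell genes, insl3, star, cyp17a1 and cyp11c1, had both replicate 2 arrays above both replicate 1 arrays, with median differences of 0.89 in the controls and 0.47 in MCLR. Of all genes, 20.7% showed this order. For cyp11c1 it was narrow, with 3.59 on control replicate 2 against 3.58 on MCLR replicate 1, and the MCLR arrays differed by 0.04. The hormone gene insl3 had 4.58 and 5.03 for control against 4.12 and 4.67 for MCLR. The order held in 3 of 12 germ cell genes, with median differences of 0.03 and 0.07, and in 0 of 7 Sertoli cell genes, with -0.08 and -0.26. It held in 2 of 10 red blood cell genes (0.32 and 0.27), 1 of 17 immune cell genes (-0.10 and 0.54), 0 of 10 intestine genes (0.28 and -0.16), 3 of 6 adipocyte genes (0.77 and 0.07) and 2 of 6 kidney genes (0.28 and -0.12). In all these 8 lists limma called 0 genes in either direction after adjustment. At an unadjusted p under 0.05 the red blood cell list had 2 higher and 1 lower, the Sertoli cell, immune cell and intestine lists 1 higher each, and the other lists 0. Over all genes, 8.67% were higher and 0.53% lower. The intestine gene, fabp6, and 1 of the red blood cell genes, tfr1a, both named after their values were seen, were below the background mark on both control arrays.

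**Figure D4:**
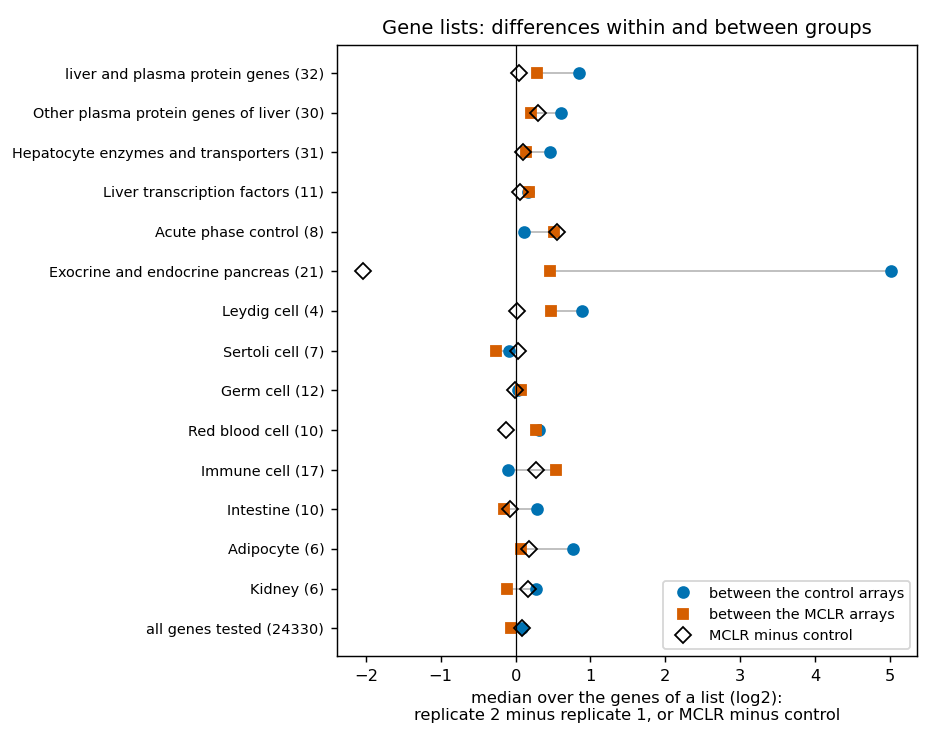
Median difference over the genes of each list (log2), for replicate 2 minus replicate 1 of the controls (circles), the same for MCLR (squares) and MCLR minus control (open diamonds), with the number of genes tested in brackets. The pancreas list stands at 5.01 between the control arrays. The liver lists and the Leydig cell list are above 0 between the arrays of each group. So are the pancreas, acute phase, red blood cell, adipocyte and germ cell lists.

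The acute phase list held genes that control this response and saa, which encodes a product of it. Its genes were highest on MCLR replicate 2 in 5 of 8 cases, saa among them, and on MCLR replicate 1 in 3. Of all genes, 25.7% and 32.8% were. Their log2 fold changes were positive in 8 of 8, beside 14928 of 24330 over all genes. The median was 0.55, beside 0.08 over all genes. Without overlap, 5 were higher in MCLR and 0 lower, beside 25.3% and 9.08% of all genes. After adjustment 0 of 8 were called, and at an unadjusted p under 0.05, 2 were higher and 0 lower, named after their values were seen, il6 (log2 fold change 1.07) and il6st (1.0002), for interleukin-6 and a subunit of its receptor, beside 8.67% higher and 0.53% lower over all genes. The genes socs3a, cebpb and stat3, for regulators of cytokine response, had log2 fold changes of 0.05 ± 0.26, 0.59 ± 0.38 and 0.23 ± 0.25. Serum amyloid A, an acute phase protein, is encoded by saa, named here after its values were seen. Its level was -2.16 and -1.92 for control against -4.77 and 2.91 for MCLR. The MCLR arrays were thus the lowest and the highest of the 4, 7.68 apart, and the log2 fold change was 1.11 ± 2.32. The liver and plasma protein genes were highest on MCLR replicate 2 in 9 of 32 cases, close to the share of all genes, and the immune cell genes in 11 of 17. Of the immune cell genes, 16 had a positive log2 fold change and 1 a negative, where 14928 of all 24330 genes had a positive one. Without overlap, 5 of the 17 were higher in MCLR and 0 lower, where 25.3% and 9.08% of all genes were. Whether these values are related was not tested.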

How the data were processed

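Testis RNA was labelled with Cy3 for 1-colour Agilent arrays. Per the file headers, Agilent Feature Extraction 11.0.1.1 produced the scanner files, in which the processed signal is an intensity on a linear scale with background subtracted, not scaled between arrays. Marks of 0 or 1 per spot flag background and outliers. The authors' deposited table gives log2 values with equal quartiles on all arrays. Its tool is not given in the sources used here, and it served as an alternative.

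Levels are the log2 processed signal minus the log2 75th percentile of the array (signals of 301.0 to 397.8). Spots of a probe were averaged; outlier marks removed 60 probes. Transcript identifiers named 25949 of 43543 probes through the gene table of assembly GRCz12tu, which is not the build of the array, so no coordinates are given. Symbols in the lists were matched through its synonyms too. A probe was kept where both arrays of either group stood well above background, and the probe of highest mean level stood for its gene. Limma 3.58.1 in R 4.3.3 compared the groups (2 residual and 3.52 prior degrees of freedom, two-sided, Benjamini-Hochberg under 0.05 over 24330 genes); the fit was tested on simulated data. A probe below the background mark on all arrays of a group has only a bound, against the lowest signal above background. Members and lists were chosen with earlier results of these data known. Named were up to 4 genes of each role by mean level, the 5 of widest range, up to 6 per direction without overlap, and up to 3 of highest mean level in other lists; 1 such gene is not reported here. Python 3.11.15 with pandas 2.3.3 and matplotlib 3.10.9 served for tables and plots. Alternatives were other scalings, filters and probe rules, a robust trended prior, the replicate number as a block, and each array left out. Another was normexp background correction (offset 50) followed by quantile normalization.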

Additional observations from a re-analysis of the deposited data

How the results depend on the processing

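No setting that kept all 4 arrays gave an adjusted call among the 32 genes, though median scaling called 214 of 24330 genes (0.88%). Leave-one-out counts ran from 0 to 1 for adjusted calls (the 1 was agt, without control replicate 2, whose control level is below the background mark; over all genes 0% to 1.32%), from 0 to 4 for 2-fold differences at an unadjusted p under 0.05 (4 without control replicate 2, namely fga, ttr, cfb and agt, 1 without control replicate 1, apoa2, and 1 without MCLR replicate 1, hamp; over all genes 4.92% to 10.6%), from 5 to 26 for genes without overlap and higher in MCLR and from 2 to 17 for those lower, and from -0.33 to 0.41 for the median log2 fold change. The lone array of a group was taken to vary as the other group did. Over all genes, with 1 array left out, 38.5% to 49.2% were without overlap and higher in MCLR, and 21.9% to 28.4% lower. Of the arrays kept without control replicate 2, MCLR replicate 2 was highest in 19 genes, a count added after the data were seen. With scaling to the median, 3 genes (9.38%, against 17.9% of all genes) were without overlap and higher. The count was 3 (9.38%, against 17.6%) with normexp and 8 (25%, against 30.4%) with the mean of all probes of a gene. The count lower was 2 (6.25%, against 13.3%) with quantile normalization and 2 (6.25%, against 13.3%) with the deposited table. The number highest on control replicate 1 was 0 with quantile normalization, median scaling, the deposited table and the mean of probes. The number highest on MCLR replicate 1 was 0 with quantile normalization, median scaling, normexp and the deposited table, and 9 with the mean of probes. The cause was not tested.

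Among the 24 genes given in full, 11 of 215 log2 fold changes turned sign with all arrays kept, none from a size above 0.285. With the mean of probes the values were 0.15 for ambp, 0.26 for fah and 0.16 for hpda. For apoa1b they were 0.0018 with quantile normalization, 0.010 with normexp and 0.0012 with the deposited table. For f2 they were -0.061 with median scaling and -0.014 with normexp. For serpind1 they were -0.092 with median scaling and -0.0029 with the deposited table, and for serpina1l -0.0018 with median scaling.

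Leaving out single arrays turned the sign of the log2 fold change at least once in 18 of the 24, whose lowest and highest values were those of ambp (-0.81 to 0.71), apoa1b (-0.72 to 0.63), apoa2 (-1.78 to 0.40), apobb.1 (-0.64 to 0.38), apom (-0.24 to 1.198), c3a.1 (-0.43 to 1.36), cfb (-0.47 to 1.198), cp (-0.59 to 0.79), f2 (-0.35 to 0.42), fah (-0.75 to 0.18), fga (-0.10 to 1.096), fgb (-0.40 to 0.28), hpda (-0.40 to 0.22), rbp4 (-0.31 to 0.068), serpina1 (-0.54 to 1.15), serpina1l (-0.39 to 0.58), serpind1 (-0.25 to 0.26) and ttr (-0.38 to 1.09).

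The labels do not say that replicate numbers pair the arrays; deviations of same-numbered arrays correlated at 0.19 over genes. With the replicate number as a block in limma, 0 of 32 genes passed adjustment, beside 0% of all genes. At an unadjusted p under 0.05, 1 of 32 (3.12%), hamp, was 2-fold different, against 6.02% of all genes. Its log2 fold change was 1.50 (adjusted p = 0.456). The signal over background limits agt and gc, each below the mark on 1 array.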
